A study of Caenorhabditis elegans with 3 samples.

Results

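The nuclear genes of the mitochondrial respiratory chain were examined in RNA of adult Caenorhabditis elegans hermaphrodites, measured against a mixed reference RNA. Members were the genes whose single symbol began with nuo, cox, ucr, sdha, sdhb, sdhd, atp, cyc, isp, gas, asg or lpd and a number, together with mev-1 and clk-1. The rule found 41 of the 15168 genes named by a single symbol, on 45 probes, and all 41 had a value on every array. Of these, 36 encode chain or ATP synthase subunits, cytochrome c, assembly factors of complex IV or the coenzyme Q enzyme CLK-1. The other 5 are lpd genes (named after a lipid-depleted phenotype), which entered through the symbol and are given apart. The rule fitted 50 genes of the RefSeq gene table. The remaining 9 (cox-6B, cox-10, cox-14, cox-16, cox-18, cox-19, lpd-5, nuo-3 and ucr-11) had no probe of a single symbol and were not analysed here.

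Each of the 3 two-colour arrays carried one adult RNA prep, labelled TP09, in channel 2 and the same wild-type mixed reference RNA in channel 1. The labels give the sex (hermaphrodite) and stage (adult) but neither the genotype of the adults, their age in hours, nor the stages that make up the reference. The 3 preps are the replicates of a single group. Whether the preps stem from separate cultures is not said, and p-values therefore reflect only the spread between preps, which may be technical.

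The respiratory chain passes electrons from NADH (complex I) and succinate (complex II) through coenzyme Q to complex III, then by cytochrome c to complex IV, which reduces oxygen. The proton gradient built on the way drives ATP synthase. The mitochondrial genome encodes the catalytic core of complex IV, cytochrome b, several subunits of complex I and a subunit of ATP synthase. All other subunits come from nuclear genes such as those described here. In C. elegans the chain is known from mutants with altered life span or stress resistance, among them the long-lived isp-1, nuo-6 and clk-1 mutants and the oxygen-sensitive mev-1 and gas-1 mutants. None of the 12 protein-coding genes of the mitochondrial genome had a probe of a single symbol, so the nuclear and mitochondrial subunits could not be set side by side.

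The measure is the log2 ratio of adult to reference signal, centred on each array's median and averaged over a gene's probes, with the SD over n = 3 arrays. A difference was called at a Benjamini-Hochberg adjusted p under 0.05 in a limma fit over 15092 genes. Which channel is the numerator is not stated. Channel 2 over channel 1 is the likely direction, since the sample descriptions name the adult prep ahead of the reference, and under the other direction every sign below turns. Of 9 markers of adult hermaphrodites, 6 were higher in adults and 1 (egg-1) was lower, with a median of 1.03, and all 6 larval markers were lower, with a median of -1.50. The arrays correlated over all genes with Pearson's r of 0.82 to 0.92. The median SD over arrays was 0.18 for the 41 members and 0.21 for all genes tested.

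The nuclear respiratory chain genes did not move together. Among the 41 members, 11 were higher in adults and 7 were lower, so 43.9% were called, against 44.4% of all genes tested (20.9% higher and 23.5% lower). The share called among the members was thus near the background. The largest ratios belonged to sdha-2 of complex II and ucr-2.3 of complex III, which were 2.64-fold and 2.60-fold higher in adults, and the lowest to ucr-2.1 of complex III, 1.86-fold lower. The members' median was 0.11 (0.21, 0.02 and 0.12 on replicates 1 to 3), against -0.015 for all genes tested. Centring each array by 32 runs of consecutive table rows in place of its median gave 10 members higher and 10 lower, and a members' median of 0.020. Among the 36 members without the lpd genes, 8 were called higher, 6 lower and 22 missed the threshold. For each of those 22, the moderated 95% interval of the log2 ratio stayed within 1 of 0 (a 2-fold change), with bounds between -0.65 and 0.63. Of the 41 members, 29 (70.7%) had the same sign on all 3 arrays, against 67.6% of all genes tested. Tested with limma's treat against a 1.5-fold change, 3 members passed (sdha-2, ucr-2.3 and lpd-6), against 13.8% of all genes.

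**Figure D1:**
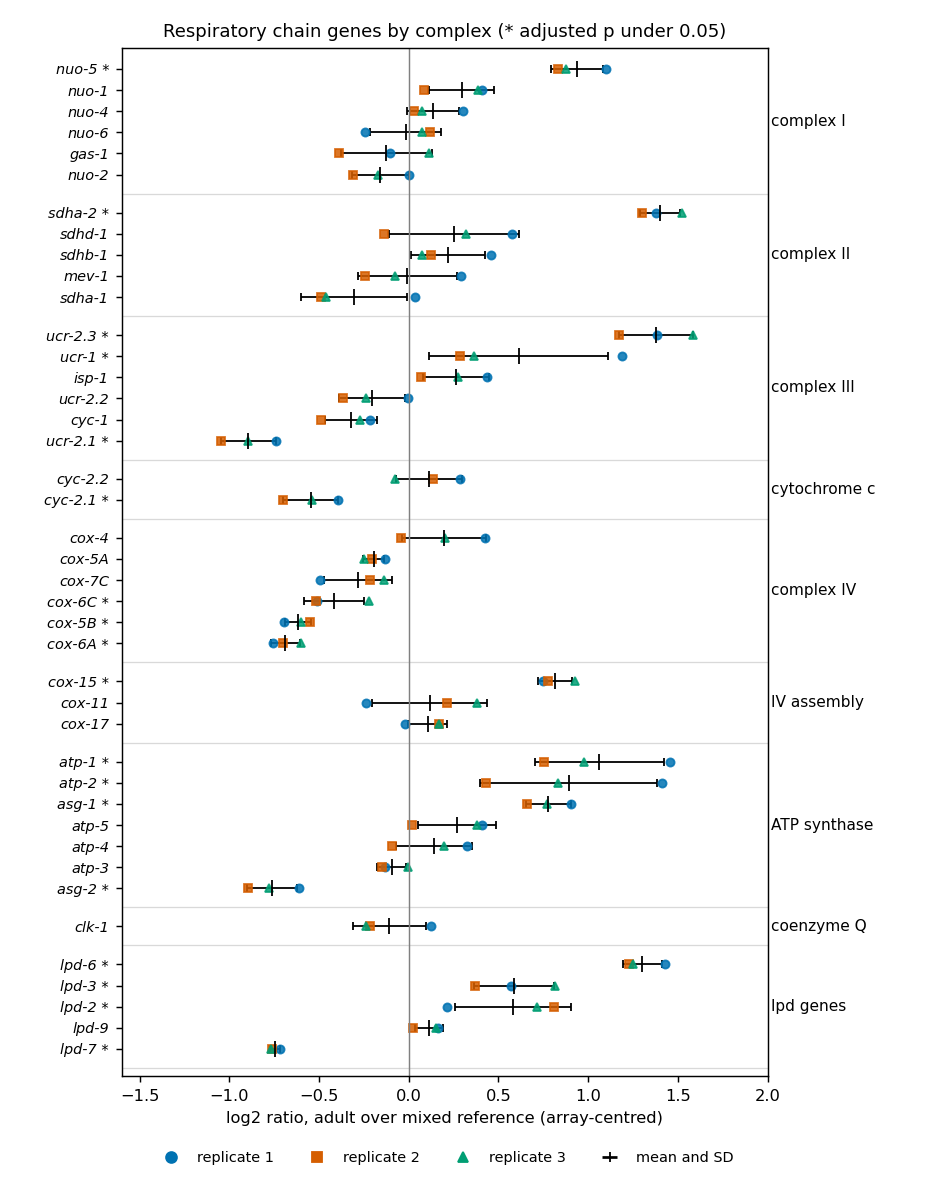
Log2 ratio of adult over mixed reference (horizontal axis) for the 41 members, grouped by complex, with each of the 3 arrays as a point and the mean with its SD in black; an asterisk marks an adjusted p under 0.05. The means range from -0.89 for ucr-2.1 to 1.40 for sdha-2, and 5 of the 6 complex IV subunit genes have a mean below 0.

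Complex I oxidises NADH, and only 1 of its 6 members was called. The iron-sulphur subunit gene nuo-5, whose human counterpart is NDUFS1, had log2 ratios of 1.10, 0.83 and 0.88 on replicates 1 to 3. It lay above 0 on every array and above the other 5 complex I members on each of them, at a mean of 0.94 ± 0.14 or 1.91-fold (adjusted p = 0.000895). The flavoprotein subunit gene nuo-1, which takes electrons from NADH, stood at 0.29 ± 0.18 and did not pass (adjusted p = 0.110). With array weights in limma it was called higher, at 0.31 (adjusted p = 0.034). The genes nuo-2 (-0.16), nuo-4 (0.14) and nuo-6 (-0.017) did not pass either, but after centring by 32 runs of consecutive table rows nuo-2 was called lower, at -0.34 (adjusted p = 0.0444). The gene gas-1, for the subunit next to the ubiquinone site, had -0.10, -0.39 and 0.12, and its sign differed between arrays. The complex I median was 0.059, and -0.027 after that centring.

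More complex I genes carry other symbols and were listed by their names. Of 24 measured (of 32 in the gene table), 5 were higher and 4 lower, and the median was 0.069. Centring by runs of rows gave 4 higher and 7 lower. The 19 subunit genes among them gave 3 higher and 3 lower, with a median of 0.020, and the 5 nuaf genes, named as complex I assembly factors, gave 2 higher and 1 lower. The gene nuaf-6 had log2 ratios of 1.39, 1.48 and 1.32, higher on every array than any complex I subunit of either list, with a mean of 1.40 ± 0.08 (adjusted p = 0.000151). At the other end, the subunit gene ndua-5 had -1.16, -0.70 and -0.80 (mean -0.88 ± 0.24, adjusted p = 0.00176). The subunit genes of complex I thus ranged over both signs under both sets of names.

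Complex II, succinate dehydrogenase, joins the citrate cycle to the chain. Of its 5 members, 1 was higher and 4 did not pass. The flavoprotein gene sdha-2 had log2 ratios of 1.38, 1.30 and 1.52 (mean 1.40 ± 0.11, 2.64-fold, adjusted p = 0.000161). The other flavoprotein gene, sdha-1, had 0.03, -0.49 and -0.46, so that replicate 1 stood apart from replicates 2 and 3. Its mean of -0.30 ± 0.29 did not pass (adjusted p = 0.140), and without replicate 1 it was called, at -0.47 (adjusted p = 0.0144). The iron-sulphur subunit gene sdhb-1 stood at 0.22 ± 0.21, and the membrane subunit genes sdhd-1 at 0.25 ± 0.36 and mev-1 at -0.0076 ± 0.27. Both membrane subunit genes were highest on replicate 1 and below 0 on replicate 2.

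Complex III passes electrons from reduced coenzyme Q to cytochrome c, and its members lay on both sides. Of 6, 2 were higher, 1 was lower and 3 did not pass. The core protein 2 gene ucr-2.3 had log2 ratios of 1.39, 1.17 and 1.58 (mean 1.38 ± 0.21, 2.60-fold, adjusted p = 0.000228). Its relative ucr-2.1 had -0.74, -1.05 and -0.90 (mean -0.89 ± 0.15, 1.86-fold lower, adjusted p = 0.00113). Another gene of this kind, ucr-2.2, had -0.0028, -0.36 and -0.24 and did not pass (adjusted p = 0.255). The 3 core protein 2 genes kept the same order on every array, with no overlap between ucr-2.3 and either of the others.

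The electron-carrying subunits of complex III were not called. The gene of the Rieske iron-sulphur protein, isp-1, had 0.44, 0.07 and 0.28 (mean 0.26 ± 0.18, adjusted p = 0.150). The cytochrome c1 gene cyc-1 had -0.21, -0.49 and -0.27 (mean -0.32 ± 0.14, adjusted p = 0.0758), below 0 on every array, and it was called without replicate 1 (-0.38, adjusted p = 0.0423). The core protein 1 gene ucr-1 was called at 0.61 ± 0.50 (adjusted p = 0.0346), with 1.19, 0.29 and 0.37. That call was lost without replicate 1, at 0.33 (adjusted p = 0.057), and after centring by runs of rows, at 0.34 (adjusted p = 0.0842). With array weights in limma it was kept, at 0.42 (adjusted p = 0.0196).

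The soluble carrier cytochrome c is encoded by cyc-2.2 and cyc-2.1. The gene cyc-2.2 had 0.29, 0.13 and -0.08 and did not pass (adjusted p = 0.523). The gene cyc-2.1 had -0.40, -0.70 and -0.54 (mean -0.55 ± 0.15, 1.46-fold lower, adjusted p = 0.0105). The call was lost when replicate 2 (adjusted p = 0.072) or replicate 3 (adjusted p = 0.0642) was left out, although the mean stayed between -0.62 and -0.47. The values of cyc-2.2 all lay above those of cyc-2.1.

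Complex IV, cytochrome c oxidase, was the complex with the lowest median among complexes I to IV and ATP synthase, at -0.35 (-0.50, -0.36 and -0.24 on replicates 1 to 3). Of its 6 nuclear subunit genes, none was higher by limma (count 0, and 0 at an unadjusted p under 0.05), 3 were lower and 3 missed the threshold. The subunit gene cox-6A had -0.76, -0.70 and -0.60 (mean -0.69 ± 0.08, 1.61-fold lower, adjusted p = 0.00295). The subunit gene cox-5B had -0.70, -0.55 and -0.60 (mean -0.62 ± 0.07, adjusted p = 0.00485). These values were close on the 3 arrays, and each lay below the values of cox-4 and cox-5A.

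The remaining lower gene of complex IV, cox-6C, had -0.51, -0.51 and -0.22 (mean -0.42 ± 0.17, adjusted p = 0.0340). Its call was lost on leaving out any one replicate, with adjusted p from 0.0544 to 0.163. The genes cox-7C (-0.28 ± 0.19) and cox-5A (-0.20 ± 0.06) were below 0 on every array without passing. After centring by runs of rows cox-7C was called lower, at -0.32 (adjusted p = 0.049). The gene cox-4 stood at 0.20 ± 0.23, with 0.43, -0.04 and 0.20, and was the only complex IV subunit gene with a mean above 0. Its 2 probes gave means of 0.13 and 0.26.

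Of the 3 assembly factors of complex IV among the members, 1 was higher and 2 did not pass. The gene cox-15, for an enzyme of haem a synthesis, had 0.75, 0.78 and 0.93 (mean 0.82 ± 0.10, 1.76-fold higher, adjusted p = 0.00140). The copper insertion gene cox-11 had -0.24, 0.21 and 0.38, and its sign differed between arrays. The copper chaperone gene cox-17 stood at 0.11 ± 0.11, and neither passed (adjusted p = 0.577 and 0.528). On every array cox-15 was above all 6 subunit genes of complex IV.

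ATP synthase uses the proton gradient to make ATP. Of its 7 members, 3 were higher and 1 was lower, and the median was 0.27. The genes of its catalytic head were both higher. For the alpha subunit gene atp-1 the log2 ratios were 1.46, 0.75 and 0.98 (mean 1.06 ± 0.36, 2.09-fold, adjusted p = 0.00147), and its 2 probes gave means of 1.11 and 1.01. For the beta subunit gene atp-2 they were 1.41, 0.43 and 0.83 (mean 0.89 ± 0.49, adjusted p = 0.00708). Both were highest on replicate 1 and lowest on replicate 2, and both stayed called without any one replicate.

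The stalk and membrane parts of ATP synthase did not follow the head as a group. The genes atp-3, for the protein that confers oligomycin sensitivity, atp-4, for coupling factor 6, and atp-5, for subunit d, stood at -0.09 ± 0.08, 0.14 ± 0.21 and 0.27 ± 0.22, and none passed (adjusted p from 0.150 to 0.568). Subunit g, a small membrane protein, is encoded by asg-1 and asg-2. The gene asg-1 had 0.90, 0.66 and 0.77 (mean 0.78 ± 0.12, 1.72-fold higher, adjusted p = 0.00188). The gene asg-2 had -0.61, -0.89 and -0.78 (mean -0.76 ± 0.14, 1.70-fold lower, adjusted p = 0.00221). These genes of one subunit were called in opposite directions.

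The clk-1 gene, for a hydroxylase of coenzyme Q synthesis, had 0.13, -0.22 and -0.24 (mean -0.11 ± 0.20) and did not pass (adjusted p = 0.549). After centring by runs of rows it was called, at -0.39 (adjusted p = 0.0225). The replicate 1 value lay apart from the others here as well. Of the 36 members without the lpd genes, 24 were highest on replicate 1, against 38.3% of all genes tested. After centring by runs, 20 of the 36 were, against 5577 of the 15092 genes tested.

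Paralogues of the same subunit differed in ratio on every array. The 7 differences computed between paralogues ranged from 0.66 to 2.27 on the log2 scale, and each had a single sign on all 3 arrays. How often unrelated gene pairs have a single sign was not computed. Among all single genes tested, 67.6% had one. The differences among the ucr-2 genes reuse the same genes and are not independent. The difference of ucr-2.3 minus ucr-2.1 was 2.12, 2.22 and 2.48 (mean 2.27 ± 0.19, 4.84-fold). For sdha-2 minus sdha-1 it was 1.34, 1.79 and 1.98 (mean 1.71 ± 0.33, 3.26-fold). With 3 arrays an exact two-sided sign-flip permutation test cannot go below p = 0.25, which each of the 7 gave, also after adjustment over the 7, so the sizes and SDs carry the comparison.

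The other differences between members lay between 0.66 and 1.58. For asg-1 minus asg-2 the values were 1.52, 1.55 and 1.55 (mean 1.54 ± 0.02), the smallest SD of the 7. For ucr-2.3 minus ucr-2.2 they were 1.39, 1.54 and 1.83 (mean 1.58 ± 0.22), and ucr-2.2 minus ucr-2.1 averaged 0.69 ± 0.04. The cytochrome c genes, cyc-2.2 minus cyc-2.1, differed by 0.66 ± 0.19. The smallest differences were thus those of the cytochrome c genes and of the lower 2 core protein 2 genes.

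The complex I gene gas-1 also has a close relative, nduf-2.2, which is no member of the rule. It had 0.86, 0.38 and 0.65 (mean 0.63 ± 0.24, 1.54-fold higher, adjusted p = 0.00849), and nduf-2.2 minus gas-1 averaged 0.75 ± 0.21. This difference was 0.43 after centring by runs of rows, a change of over 1.5 times. Probe sequences were not used here, and to what extent relatives share signal on a probe was not tested. Each difference compares ratios to the reference, not levels of one gene with those of another.

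**Figure D2:**
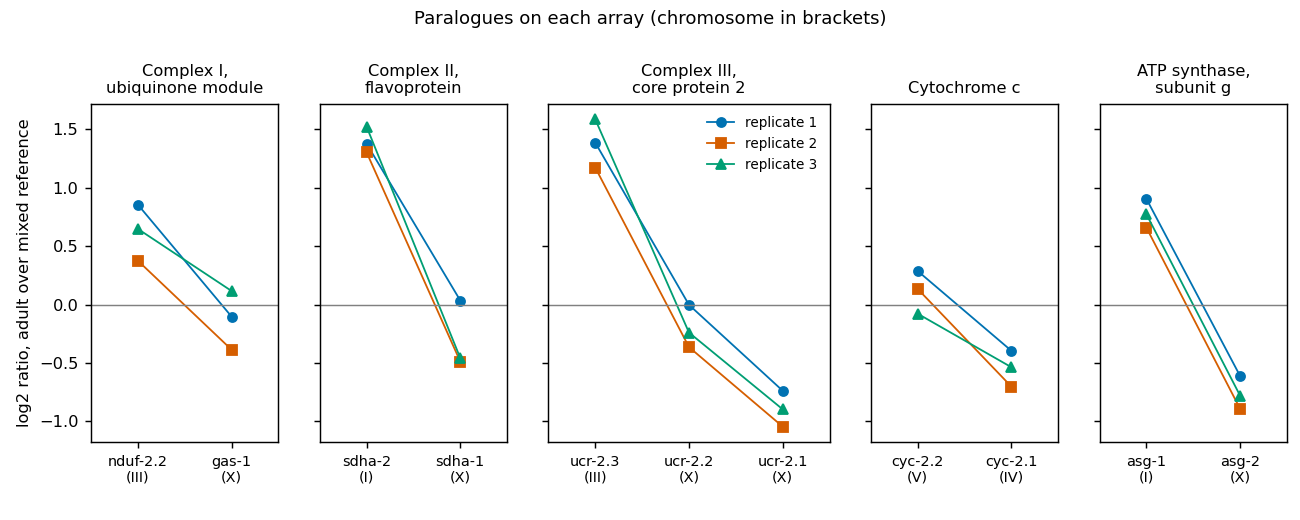
Log2 ratios of adult over mixed reference (vertical axis) for paralogues of 5 subunits, with the chromosome in brackets and a line joining the values of one array. Within each panel the genes are placed from the highest mean to the lowest. That order held on every array, with a mean difference of 2.27 for ucr-2.3 over ucr-2.1 and 0.66 for cyc-2.2 over cyc-2.1.

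Chromosome position went along with several of these contrasts. All 5 members on the X chromosome (gas-1, sdha-1, ucr-2.1, ucr-2.2 and asg-2) had a mean below 0, with a median of -0.30. Among all 2269 X genes tested, only 786 had a mean above 0. Of the 5 X-linked members, 2 were lower and none was higher by limma (count 0, and 0 at an unadjusted p under 0.05). Of the 31 members on autosomes without the lpd genes, 19 had a mean above 0, with 8 higher, 4 lower and a median of 0.14. Among all 12823 autosomal genes tested, 6558 had a mean above 0. Each of the X-linked genes has an autosomal relative with a higher ratio, namely nduf-2.2, sdha-2, ucr-2.3 and asg-1.

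Among all genes tested on the X chromosome, 7.4% were higher and 30.9% were lower in adults, against 23.3% and 22.2% of those on autosomes, and the medians were -0.16 and 0.014. The rows of the table follow the chromosomes in part: of 2298 probes for X genes, 2295 lay in the last 10000 rows, as did all 3906 probes for genes on chromosome V, and position in the table and chromosome cannot be fully told apart. Genes on V were 12.6% higher and 27.5% lower. After centring by runs of rows, the median of all X genes was -0.062 and that of the 5 X-linked members -0.29. That centring also removes part of any chromosome difference. All 5 stayed below 0, but gas-1 (-0.012) and ucr-2.2 (-0.034) were then near 0.

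Germline markers were far from 0 in the same arrays. All 4 (glh-1, glh-2, pgl-1 and gld-1) were higher in adults, with means from 2.08 to 2.50. Of 5 body wall muscle markers 1 was higher and 1 lower, with a median of 0.0059, and of 5 neuron markers 4 were lower, with a median of -2.14. The median of 5 sperm markers was -1.22, and 3 of them passed as lower. The median of 4 intestine markers was -0.090, and 2 passed as lower. Their part in the ratios of the respiratory chain genes was not tested. In RNA of whole worms, fewer cells of a type and less RNA per cell cannot be told apart.

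**Figure D3:**
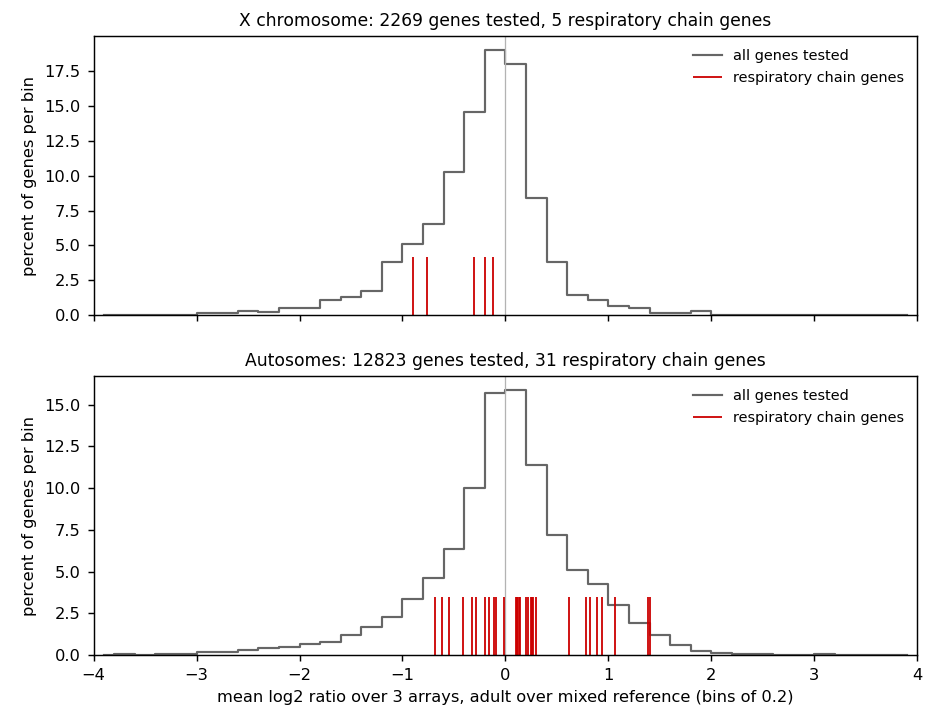
Distribution of the mean log2 ratio of adult over mixed reference (horizontal axis, bins of 0.2; vertical axis, percent of genes per bin) for all genes on the X chromosome (above) and the autosomes (below), with respiratory chain genes as red lines. The 5 X-linked members all lie below 0, where the whole X distribution also has more of its genes (median -0.16). Of the 31 autosomal members 19 lie above 0, against 6558 of all 12823 autosomal genes.

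Other mitochondrial genes were read from lists made by role, whose counts stand beside 20.9% higher and 23.5% lower among all genes tested. Citrate cycle and pyruvate dehydrogenase genes, which feed electrons to the chain, were called higher for 10 of 22 and lower for 2, with a median of 0.37. The count lower was 1 in the values as deposited, and also 1 without replicate 2 or without replicate 3. The succinyl-CoA ligase gene suca-1, which lies on the X chromosome, had 1.39, 1.06 and 1.76 (mean 1.40 ± 0.35, adjusted p = 0.000427). The isocitrate dehydrogenase subunit gene idhg-2 had -1.71, -1.88 and -1.40 (mean -1.66 ± 0.25, adjusted p = 0.000138), the lowest ratio of all the mitochondrial genes listed. The values of these genes lay on opposite sides of 0 on all 3 arrays.

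Genes for folding and importing mitochondrial proteins were called higher more often than lower. Of 19 genes of mitochondrial chaperones, proteases and protein import, 11 were higher and 1 (timm-23) was lower, and the median was 0.45. Without replicate 3, 7 were higher and 1 lower, and without replicate 2, 8 were higher and 2 lower. Centring by runs of rows gave 8 higher and 3 lower. The import receptor gene tomm-70 had 1.30, 1.25 and 1.30 (mean 1.28 ± 0.03, adjusted p = 0.000192), and the import chaperone gene tin-9.2 had 1.07, 1.05 and 1.27 (mean 1.13 ± 0.12, adjusted p = 0.000369). Both lay above 1 on every array. The import channel genes timm-17B.2 (0.61 ± 0.24) and timm-17B.1 (0.49 ± 0.28) were both called higher.

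Of 10 respiratory chain assembly genes on a list that also holds nuaf-1 and nuaf-3, 4 were higher and 1 (nuaf-1) was lower, with a median of 0.29. The copper delivery gene sco-1, which serves complex IV, had 0.93, 0.82 and 1.16 (mean 0.97 ± 0.17, adjusted p = 0.000852). The membrane insertion gene oxa-1 stood at 0.79 ± 0.17 (adjusted p = 0.00205). The genes coa-3 (-0.10 ± 0.29), coa-5 (0.19 ± 0.06), coa-6 (0.50 ± 0.52) and coa-7 (-0.08 ± 0.25), named as complex IV assembly factors, did not pass.

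Of 6 coenzyme Q synthesis genes other than clk-1, 2 were higher and 2 lower, and the median was 0.22. Without replicate 3, 1 was higher. The gene coq-8, for an atypical kinase, had 1.30, 1.22 and 1.05 (mean 1.19 ± 0.13, adjusted p = 0.000308) and coq-4 had -0.82, -0.42 and -0.56 (mean -0.60 ± 0.20, adjusted p = 0.00847). Of 8 genes of mitochondrial carriers, the calcium uniporter and ATPase inhibitors, 2 were higher and 4 lower, and the median was -0.37. The adenine nucleotide translocator gene ant-1.1, which exchanges ADP for ATP, had -0.44, -1.15 and -0.97 (mean -0.85 ± 0.37, adjusted p = 0.00418). The translocator gene ant-1.3 was also lower (-0.61 ± 0.17), and ant-1.2 did not pass (-0.10 ± 0.10). The carrier gene ucp-4 stood at 0.82 ± 0.13 (adjusted p = 0.00154), on the other side of 0 from the translocators.

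**Figure D4:**
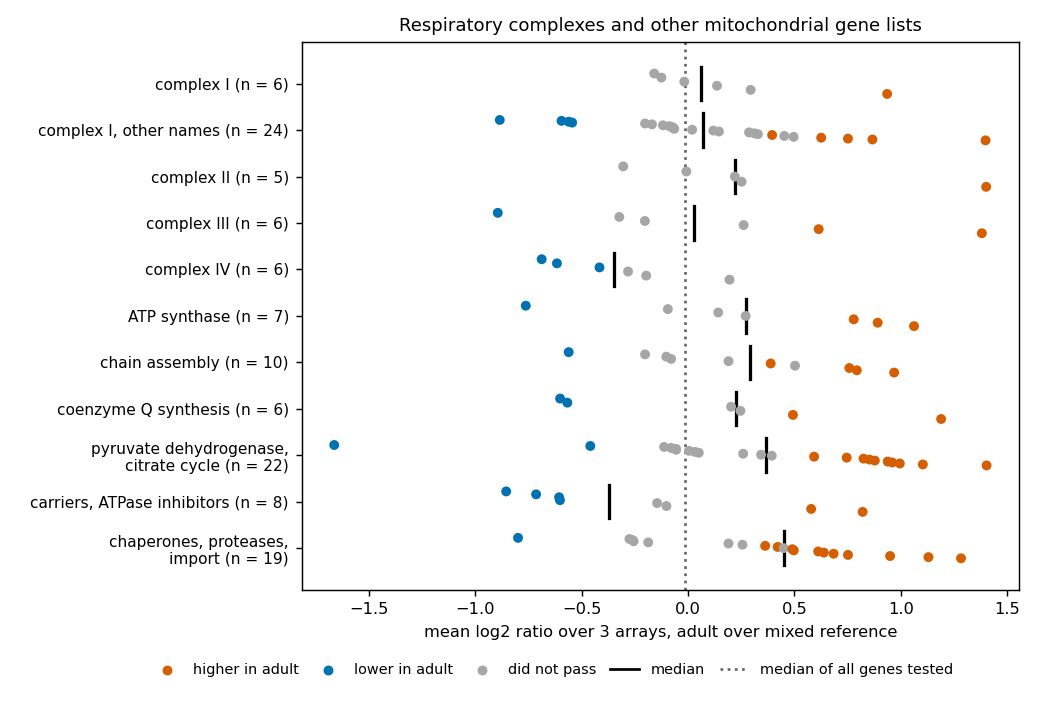
Mean log2 ratio of adult over mixed reference over 3 arrays (horizontal axis) for the genes of each respiratory complex and of the other mitochondrial lists, coloured by the limma call, with a bar at the median of each list and a dotted line at the median of all genes tested. The import list (median 0.45) and the citrate cycle list (median 0.37) lie mostly to the right of the dotted line, and complex IV (median -0.35) mostly to the left.

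The 5 lpd genes have no chain subunit among them. Of these, 3 were higher (lpd-2, lpd-3 and lpd-6), 1 was lower (lpd-7) and lpd-9 did not pass. The gene lpd-6 had 1.43, 1.23 and 1.25 (mean 1.30 ± 0.11, adjusted p = 0.000205), and lpd-7 had -0.72, -0.76 and -0.76 (mean -0.75 ± 0.03, adjusted p = 0.00185). Both are homologues of yeast ribosome assembly factors. The calls of lpd-2 (0.58 ± 0.32) and lpd-3 (0.59 ± 0.22) were lost without replicate 3 (adjusted p = 0.0966 and 0.11), and that of lpd-2 also without replicate 2 (adjusted p = 0.0887).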

How the data were processed

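RNA of 3 adult hermaphrodite preps was measured on 3 two-colour arrays against one reference RNA. The deposited values are log2 ratios for 20000 probes, with 19807 to 19899 present on each array. The base follows from the numbers: read as log2, all 58013 deposited values within 2 of 0 give a 3-decimal ratio (100%, to within 0.005 thousandths). No source used here gives the authors' dyes, background treatment, normalization or filters. No spot intensities were used, so no probe could be called above background, and the number of arrays limits the precision.

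Gene symbols of probes came from the platform annotation held by GEO, and chromosomes came from the WBcel235 RefSeq gene table by symbol, in which all 41 members matched. Arrays were centred on their medians, probes of a gene averaged, and the 15092 genes without a missing array tested against 0 with limma 3.58.1 in R 4.3.3 (2 residual and 5.3 prior degrees of freedom), with Benjamini-Hochberg adjustment over all genes. The reference RNA's own spread does not enter the test. The adult against reference test was also run on simulated data for 15092 genes, with 100 genes changed by each size. It recovered 98 of 100 log2 changes of size 1 (98%) and 37 of 100 of size 0.5 (37%). It also called 24 unchanged genes, which are false calls. In the real data 6698 genes were called, which loosens the adjusted threshold, so these shares do not measure the power here. Paralogue differences were taken within arrays and tested by exact sign flips.

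Every called member, every paralogue, isp-1, mev-1, clk-1, cyc-1, gas-1 and the 2 genes per list farthest from 0 were to be named. Other named genes were chosen after their values were seen. Members, lists and tests were chosen with earlier results of these data known. Alternatives were values as deposited, scale and quantile normalization, centring by 32 runs of rows, genes on at least 2 arrays, single probes, a robust prior, array weights, treat against 1.5-fold and leaving out each replicate. Turning the sign was added after seeing the data.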

Additional observations from a re-analysis of the deposited data

How the results depend on the processing

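No paired analysis was possible because all 3 arrays belong to one group. In the values reported, 11 members were higher and 7 lower. Apart from turning the sign, only treat against a 1.5-fold change moved these counts by over 1.5 times. By treat, 3 were higher (sdha-2, ucr-2.3 and lpd-6) and 0 lower (1 at an unadjusted p under 0.05). Treat asks for a larger effect, and it called 2076 of all genes (13.8%) in place of 6698. Leaving out 1 replicate gave 9 to 10 members higher, 5 to 8 lower and 4954 to 7097 of all genes. Array weights, which were 0.372, 1.03 and 2.6 for replicates 1 to 3, gave 12 members higher, 9 lower and 8309 of all genes. With the sign of every ratio turned, 7 members would be higher and 11 lower. Centring by 32 runs of rows moved the complex I median to -0.027 and the differences to 2.04 (ucr-2.3 minus ucr-2.1), 1.21 (ucr-2.3 minus ucr-2.2), 0.83 (ucr-2.2 minus ucr-2.1), 1.19 (asg-1 minus asg-2) and 0.43 (nduf-2.2 minus gas-1), and quantile normalization moved asg-1 minus asg-2 to 1.56; no paralogue difference changed sign under any alternative run. Uncalled genes near 0 changed sign without a call: nuo-6 to 0.012 as deposited, 0.006 and 0.018 with scale and quantile normalization, 0.057 with array weights and -0.084 to 0.096 on leaving out 1 replicate; mev-1 to 0.021 as deposited and -0.158 to 0.110 on leaving out 1 replicate; on leaving out 1 replicate, cox-11 ranged from -0.014 to 0.296 and gas-1 from -0.245 to 0.006; nuo-4 and sdhd-1 to -0.043 and -0.024 with centring by runs. The cause was not tested.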

Other observations

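Other mitochondrial proteins are also encoded by related genes, and the pairs below were picked after their values were seen. The isocitrate dehydrogenase subunit genes idhg-1 and idhg-2 stood at 0.39 ± 0.27 and -1.66 ± 0.25, and idhg-1 minus idhg-2 was 2.31, 1.98 and 1.88 on replicates 1 to 3 (mean 2.06 ± 0.23), with idhg-1 on chromosome III and idhg-2 on chromosome I. For the succinyl-CoA ligase genes, sucl-2 (chromosome III) minus sucl-1 (X) averaged 1.05 ± 0.28, with sucl-2 at 1.10 and sucl-1 at 0.051. For the genes of the ATPase inhibitor, mai-2 (chromosome IV) minus mai-1 (X) averaged 0.57 ± 0.17. The gene mai-2 did not pass (-0.15 ± 0.05) and mai-1 was called lower (-0.71 ± 0.12, adjusted p = 0.00277 by limma).

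Some pairs did not separate on all arrays. The difference of timm-17B.2 minus timm-17B.1 was -0.05, 0.62 and -0.20, and that of ant-1.3 minus ant-1.1 was -0.02, 0.35 and 0.42. For ogdh-1 minus ogdh-2 the 3 values had one sign but ranged from 0.15 to 1.88. Of the 5 listed genes on the X chromosome other than the members, suca-1 was higher, mai-1 was lower and idhb-1, idh-2 and sucl-1 did not pass, with a median of 0.0045, so the listed genes on X did not all lie below 0.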
